A study of Mus musculus with 20 samples.

Results

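The 7 genes described here are Ms4a4c, Ms4a6b, Ms4a6c, Ms4a6d, Ms4a7, Tmem176a and Tmem176b, all present in both single-cell tables. They are 7 of the 15855 genes measured in the cultures and of the 15333 measured in the tumors. The genes were named as a myeloid set and selected on their measured expression in these same cells, so their levels and their co-expression are given as a description, without a test. The rule did not use the accessible chromatin peaks at the genes, the sequences before their transcription starts, or the genes outside the set, although the lists of the latter were also drawn up with earlier results of these data known.

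The study asked whether B-cell precursors of the bone marrow (BM) turn into macrophages in cancer. B-MF were macrophages grown from BM B cells of C57BL/6 or BALB/c mice in 4T1.2-CM, a medium conditioned by 4T1.2 mouse breast cancer cells, and Mo-MF were grown in the same medium from BM monocytes, with 2 single-cell libraries for each. The labels do not say whether the 2 libraries of a group came from separate cultures, so the spread between them may be technical, and they do not give the strain of each library. Macrophages sorted from 4T1.2 tumors of BALB/c mice gave 4 single-cell libraries. Their cell names number them 2 to 5, and these numbers could not be tied to the labelled replicates. ATAC-seq, which maps accessible chromatin, was done on CSF1R+ and CSF1R- cells from the BM and the spleen of untreated mice, with 3 libraries for each of the 4 groups. The labels call these sorted cells macrophages and the study calls them B-cell precursors. No group carried a deletion or a transgene.

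Proteins of the MS4A family cross the membrane several times, like CD20, the product of the B cell gene Ms4a1. Several of the mouse Ms4a genes lie side by side in a cluster and are transcribed in monocytes and macrophages, where the proteins sit with pattern recognition and Fc receptors and tune their signals. Tmem176a and Tmem176b encode a related pair of intracellular cation channels that are transcribed from neighboring starts in opposite directions and are known from dendritic cells and monocytes. Tmem176b is known to restrain the NLRP3 inflammasome.

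In GRCm38 the 5 Ms4a members lay on chromosome 19 in the order Ms4a7 (chr19:11321039-11336146, minus strand), Ms4a4c (chr19:11404770-11427246, plus strand), Ms4a6c (chr19:11469366-11482192, plus strand), Ms4a6b (chr19:11516512-11531256, plus strand) and Ms4a6d (chr19:11586604-11604849, minus strand). Tmem176b (chr6:48833818-48841496, minus strand) and Tmem176a (chr6:48840919-48847071, plus strand) overlapped on chromosome 6 at their 5′ ends. The sequences that bear on the peak results are the 250 bases before the starts, taken from RefSeq on GRCm38.p6 for the 6 of 7 members that the promoter table holds. Capitals mark GGAAGT on either strand, the core bound by the ETS family, to which the myeloid and B cell regulator PU.1 belongs. Each is written 5′ to 3′ on the strand of its gene.
Ms4a7, chr19:11336147-11336396, minus strand: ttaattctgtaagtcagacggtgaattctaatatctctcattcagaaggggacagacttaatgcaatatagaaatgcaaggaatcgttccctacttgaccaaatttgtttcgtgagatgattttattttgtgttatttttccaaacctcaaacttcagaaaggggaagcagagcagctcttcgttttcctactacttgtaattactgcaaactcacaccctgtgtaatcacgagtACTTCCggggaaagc
Ms4a4c, chr19:11407411-11407660, plus strand: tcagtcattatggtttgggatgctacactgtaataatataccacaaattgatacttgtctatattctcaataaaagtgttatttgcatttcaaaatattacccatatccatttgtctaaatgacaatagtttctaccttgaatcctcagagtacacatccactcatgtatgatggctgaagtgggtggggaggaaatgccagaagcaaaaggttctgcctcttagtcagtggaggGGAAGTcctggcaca
Ms4a6c, chr19:11469118-11469367, plus strand: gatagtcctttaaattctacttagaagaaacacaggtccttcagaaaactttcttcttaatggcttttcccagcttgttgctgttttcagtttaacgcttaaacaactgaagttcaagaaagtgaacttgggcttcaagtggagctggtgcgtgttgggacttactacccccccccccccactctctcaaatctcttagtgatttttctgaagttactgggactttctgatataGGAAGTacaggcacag
Ms4a6b, chr19:11518309-11518558, plus strand: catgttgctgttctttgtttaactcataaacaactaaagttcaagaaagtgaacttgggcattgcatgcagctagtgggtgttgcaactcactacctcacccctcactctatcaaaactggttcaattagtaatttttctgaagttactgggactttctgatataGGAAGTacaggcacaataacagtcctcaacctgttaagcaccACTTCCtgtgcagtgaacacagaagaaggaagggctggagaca
Tmem176a, chr6:48841233-48841482, plus strand: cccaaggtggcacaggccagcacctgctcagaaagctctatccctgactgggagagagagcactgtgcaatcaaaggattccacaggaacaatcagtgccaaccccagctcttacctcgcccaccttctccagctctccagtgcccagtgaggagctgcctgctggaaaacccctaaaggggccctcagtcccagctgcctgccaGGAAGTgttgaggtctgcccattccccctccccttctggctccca
Tmem176b, chr6:48841375-48841624, minus strand: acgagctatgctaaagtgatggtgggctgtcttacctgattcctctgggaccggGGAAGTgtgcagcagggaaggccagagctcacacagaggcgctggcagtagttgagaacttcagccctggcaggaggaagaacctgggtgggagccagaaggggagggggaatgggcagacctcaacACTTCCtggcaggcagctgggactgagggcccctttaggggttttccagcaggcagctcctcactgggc

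GGAAGT was present in 7 of the 10 RefSeq promoters of the members, compared with 19.7% of all 32851 mouse promoters of the same length. That every window printed above holds a match follows in part from the choice of windows, since 1 other Ms4a7 promoter and 2 other Tmem176b promoters had none. Several of the 10 promoters overlap, since Tmem176a and Tmem176b share their upstream sequence, so they are not independent windows. The longer form AGGAAGT was found in 5 of the 10 (7.69% of all promoters), and each of its matches contains GGAAGT. GAAANNGAA, a core of interferon-response elements, was found in 4 of the 10, in Ms4a6b, Ms4a6c and both Ms4a7 promoters (7.13% of all). TGANTCA, the AP-1 core, was found in 1 (6.75% of all) and TTGCNNAA, a C/EBP core, in 0 (9.56% of all). Both strands were searched for each motif, and the matches are letters in a window and not measured binding.

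The Ms4a6b and Ms4a6c windows shared an unbroken run of 48 bases that includes the motif, while no other pair of Ms4a members, and no Ms4a member with a Tmem176 gene, shared more than 10 bases in a row.
Shared run of Ms4a6b and Ms4a6c: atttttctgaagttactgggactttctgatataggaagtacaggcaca
The transcripts of the family are also alike. Of the 50-base words in the last 500 bases of their transcripts, where 3′ single-cell reads fall, 11.1% for Ms4a4c were shared with Ms4a4b or Ms4a4d, 13.7% for Ms4a6c with Ms4a6b and other genes, and 1.22% for Ms4a6b with Ms4a6c. For Ms4a6d, Ms4a7, Tmem176a and Tmem176b the share was 0. Reads from shared words could not be assigned, so levels of Ms4a4c, Ms4a6b and Ms4a6c carry this uncertainty.

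The single-cell values are corrected counts, the numbers of transcripts per cell after the authors' adjustment to a common depth. The culture table held 20798 cells, 4846 to 5389 in each library, with a median of 18350 to 19469 corrected counts a cell. The tumor table held 10885 cells, 2318 to 3180 in each library, with a median of 7651 to 8266. The tables were corrected separately, so levels were compared within a table only. Libraries of one table shared 3 to 28 barcodes with the others.

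In the cultures, the members split by locus. Both Tmem176 genes were higher in B-MF, Ms4a4c, Ms4a6b, Ms4a6d and Ms4a7 were higher in Mo-MF, and Ms4a6c was nearly level. Ms4a7, known as a marker of macrophages at the borders of the brain and of marrow-derived macrophages, was the most abundant member. Its mean corrected count was 15.9 in the first B-MF library, 15.7 in the second, and 22.1 and 22.2 for Mo-MF. On log2 of the mean plus 0.1, B-MF less Mo-MF came to -0.49 (SE 0.049, 2 libraries a group). Transcripts of the gene were found in 97.2% to 99.4% of the cells of every library, so the share of cells with a count differed little. The part of free RNA in these counts was not tested.

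Ms4a4c, an interferon-inducible gene of classical monocytes, had the largest difference of the 7. Its means were 0.106 and 0.0881 for B-MF against 0.716 and 0.692 for Mo-MF, which is -2.03 on the log2 scale with the added 0.1 (SE 0.06). It was detected in 6.7% and 5.82% of B-MF cells and in 28% and 27.4% of Mo-MF cells. Its low level makes this value depend on the pseudocount, with a range of -2.74 to -0.64 over the alternatives.

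The 3 Ms4a6 genes are close relatives of each other but did not move as one. Ms4a6b had means of 1.52 and 1.48 for B-MF against 2.05 and 2.02 for Mo-MF, a log2 difference of -0.42 (SE 0.05). Ms4a6d had means of 10.5 in both B-MF libraries and 12.6 and 12.7 for Mo-MF, a difference of -0.27 (SE 0.049). Ms4a6c had means of 5.48 and 5.46 for B-MF against 5.25 and 5.34 for Mo-MF. Its difference of 0.05 was about the size of its SE of 0.049 and fell to 0.01 when neutrophil-like cells were left out. That SE comes from limma's moderated variance, which draws on all genes tested, and is not the gene's own spread between libraries. Ms4a6c and Ms4a6d transcripts were present in 92.1% to 99.7% of the cells of all 4 libraries, and those of Ms4a6b in 60.7% to 73.9%.

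The Tmem176 pair went the other way. Tmem176a had means of 1.08 and 0.844 for B-MF against 0.398 and 0.38 for Mo-MF, a log2 difference of 1.11 (SE 0.10). Tmem176b had means of 1.27 and 1.07 for B-MF against 0.648 and 0.562 for Mo-MF, a difference of 0.85 (SE 0.087). With a pseudocount of 1 in place of 0.1, the differences were 0.50 for Tmem176a and 0.44 for Tmem176b. Both were absent from most cells. Tmem176b was detected in 25.3% and 22.3% of B-MF cells and in 13.6% and 12.8% of Mo-MF cells.

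All 7 members separated the B-MF from the Mo-MF libraries without overlap, 3 above and 4 below. Of the 8633 genes that reached a mean of 0.1, 40% lay above and 29.6% below without overlap, so the separation alone was common. The median log2 difference of those genes was 0.02. The Mo-MF libraries held 504 and 518 neutrophil-like cells (10.4% and 9.61%) and the B-MF libraries 3 and 0. Without them 2 members lay above and 4 below without overlap, since Ms4a6c no longer separated, and Ms4a7 moved to -0.54. Within each library the ratio of Ms4a7 to Ms4a6d was 1.52 and 1.5 for B-MF against 1.75 in both Mo-MF libraries, and that of Ms4a4c to Ms4a6c was 0.0194 and 0.0161 against 0.136 and 0.13.

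**Figure D1:**
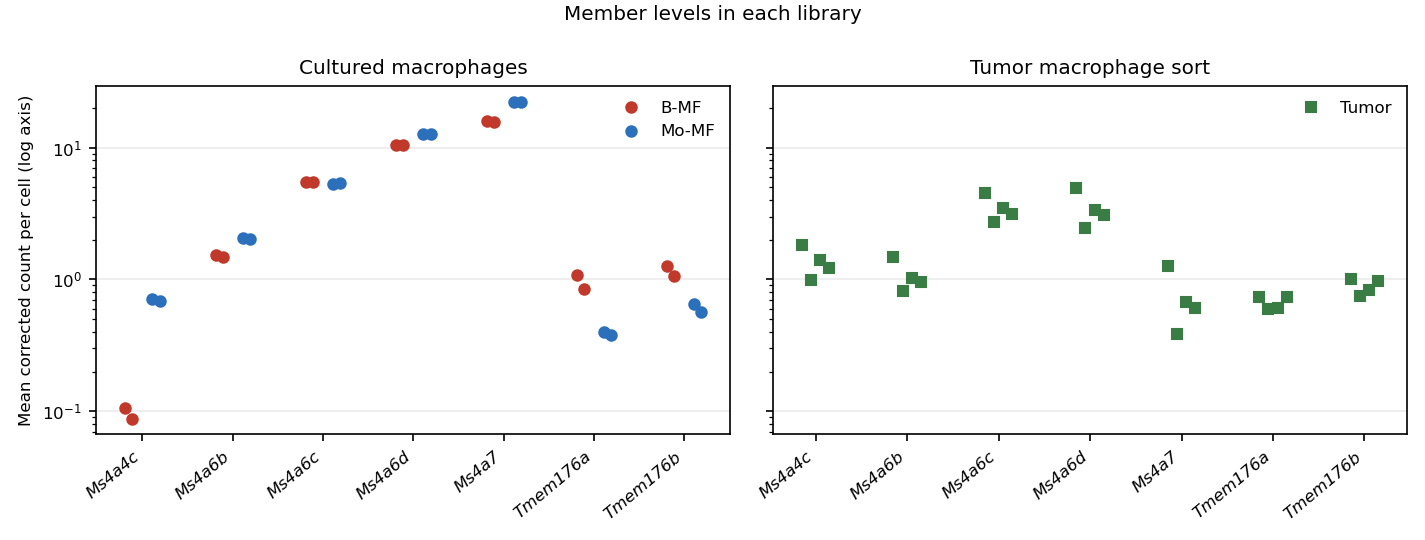
Mean corrected count per cell (log axis) of the 7 members in each library, with the 2 B-MF and 2 Mo-MF libraries in the left panel and the 4 tumor libraries in the right panel, 1 point for each library. Ms4a7 is the highest member in culture at 15.7 to 22.2 and lies between 0.387 and 1.27 in the tumor libraries, where Ms4a6c and Ms4a6d are highest. The panels were corrected separately.

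The culture cells fell into 17 clusters, and the members were unevenly spread over them. The 7 members were left out of the genes used for clustering, but the set was chosen for its pattern in these cells, so the levels are a description and were not tested. Most B-MF cells lay in 2 clusters. In the 4877 cells led by the lipid handling genes Fabp3 and Lpl, Tmem176a had a mean of 0.281 and Ms4a7 12.9. In the 3800 cells led by Nrg1, Ier3 and Egr1, 6 members were higher in both B-MF libraries, with Tmem176a at 1.72 and Ms4a7 at 21.9. Ms4a4c was 0.0971 and 0.0642 there against 0.0648 and 0.0654. Within the monocyte/macrophage-like class, Tmem176 transcripts were high in 203 cells led by the MHC class II genes H2-Eb1, H2-Aa and Cd74. The B-MF libraries gave 111 and 89 of them and the Mo-MF libraries 2 and 1. In these 203 cells all 8 macrophage markers were above their average over the culture clusters, and the dendritic marker list was not met. Their 10 leading genes include Cd209a, a dendritic cell gene, and none of the macrophage markers, so they are called here by their leading genes. There Tmem176a and Tmem176b reached 6.09 and 7.74 in the first B-MF library and 6.11 and 7.75 in the second.

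Mo-MF cells showed a wider range. The 3713 cells led by Arg1 and Fn1 had the lowest Tmem176 levels of the clusters of over 1000 cells, 0.0819 for Tmem176a and 0.106 for Tmem176b. The 1895 cells led by Ly6a had the highest Ms4a7, 40.6 and 40.5 in the Mo-MF libraries. A small cluster of 120 cells, with the classical monocyte genes Ccr2, Vcan and Ly6c2 in the lead, came from the Mo-MF libraries alone. It held Ms4a4c at 10.3, Ms4a6c at 21.8 and Tmem176b at 11.5, each above its level in the other macrophage clusters, while Ms4a7 at 13.8 was below most of them. An interferon-led cluster of 83 cells (Cxcl10, Rsad2, Ifit1), mostly from B-MF, had Ms4a4c at 1.58 and 1.03 in the B-MF libraries, against 0.106 and 0.0881 over all their cells.

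The 4 clusters that held at least 19 cells of every library allowed a comparison within a like state. In the 1020 dividing cells led by Cenpf and Mki67, Ms4a7 had means of 6.04 and 5.77 for B-MF against 18.7 and 21.4 for Mo-MF. In the 612 cells led by the replication genes Mcm5 and Mcm6, it had 8.29 and 9.81 for B-MF against 31.1 and 29.6 for Mo-MF. The gap in Ms4a7 was thus wider in both clusters of cycling cells than over all cells. The Tmem176 gap was not seen there. Tmem176a had 0.29 and 0.31 in dividing B-MF and 0.354 and 0.238 in dividing Mo-MF, and the groups overlapped. In the 1160 cells led by mitochondrial transcripts, a sign of poor RNA quality, Ms4a7 was nearly level at 12.7 and 13.3 for B-MF against 13.6 and 13.2 for Mo-MF. Tmem176a was 0.402 and 0.676 in B-MF against 0.144 and 0.27 in Mo-MF in those cells. In the 519 cells led by Fth1, Gng11 and Fabp4, of which 28 and 19 were B-MF and 252 and 220 Mo-MF, the Ms4a7 gap was smaller than over all cells, at 16.1 and 13.6 for B-MF against 19 and 17.2 for Mo-MF. Tmem176a was 0.214 and 0 against 0.0873 and 0.0591 there, and the groups overlapped.

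**Figure D2:**
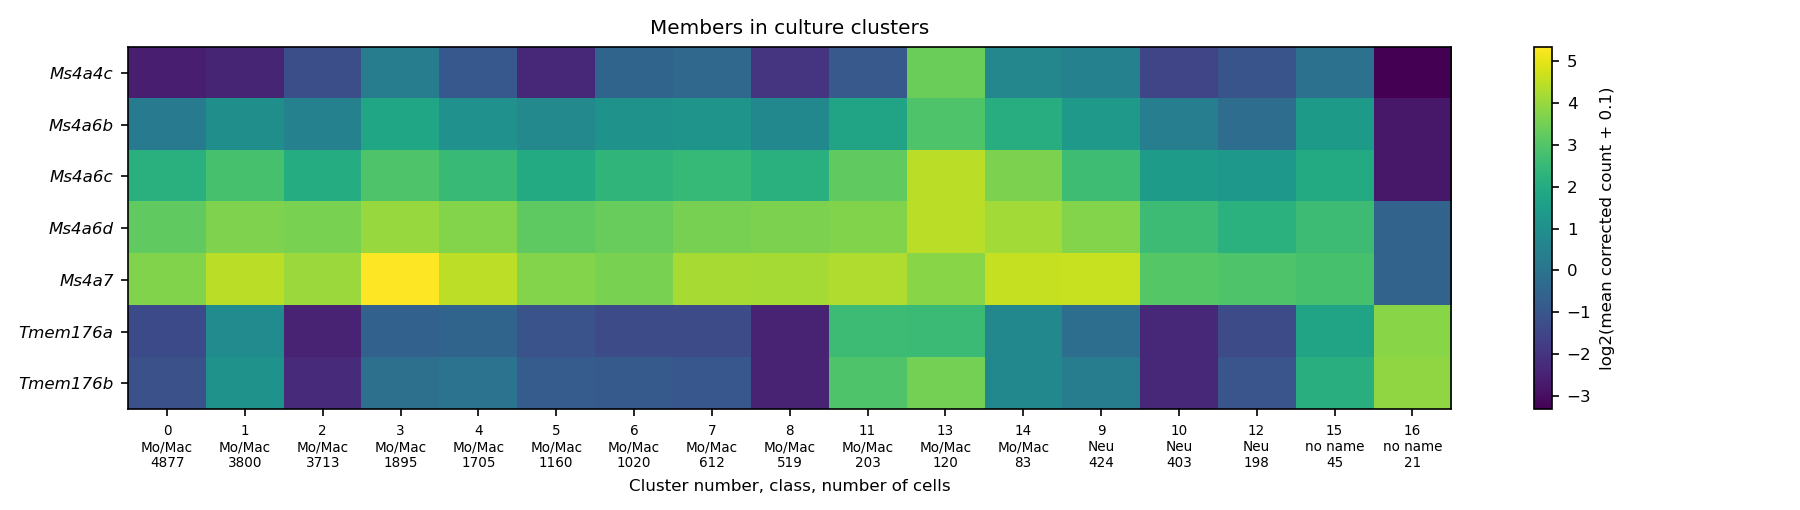
Mean level of each member, as log2 of the mean corrected count plus 0.1, in the 17 culture clusters, with the cluster number, class and number of cells under each column. Ms4a7 is brightest in cluster 3 (mean 40.4), the Ms4a4c row is dark outside cluster 13 (10.3), and both Tmem176 rows are brightest in clusters 11, 13 and 16.

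The Ms4a members and the Tmem176 pair parted in the smallest culture cluster. In 21 cells led by the fibroblast genes Sparc and Col1a2, Tmem176a and Tmem176b had means of 13.7 and 14.8 and were found in 100% of the cells, while the 5 Ms4a genes lay at 0.571 or less. The 1025 neutrophil-like cells of the cultures, nearly all from Mo-MF, carried Ms4a7 at 14.7 in 97.7% of cells. The same cells held macrophage transcripts, with C1qa at 7.7 and Csf1r at 4.6. The part of free RNA, of doublets or of the depth correction in these levels and shares was not tested. In a cluster of 403 of these cells, Ms4a6b was found in 96.5% at a mean of 1.19. In the 3800 cells led by Nrg1 it was found in 66.6% at a mean of 1.89, so shares did not follow means.

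In the tumors, all 7 members were higher in monocyte/macrophage-like cells than in neutrophil-like cells in each of the 4 libraries. The same held for 70.8% of the 5905 tumor genes whose mean reached 0.1, so the direction alone does not set the members apart. The sorted cells were labelled macrophages, but by their markers 4294 of 10885 cells (39.4%) were monocyte/macrophage-like and 5347 (49.1%) neutrophil-like, and these shares moved with the library. Monocyte/macrophage-like cells made up 52.5%, 29.2%, 39.4% and 33.6% of libraries 2 to 5, and the mean over all cells followed that order for Ms4a4c (1.81, 0.995, 1.4 and 1.23), Ms4a6c (4.51, 2.73, 3.5 and 3.13) and Ms4a6d (4.94, 2.44, 3.37 and 3.06). Within the monocyte/macrophage-like cells the spread narrowed. Ms4a4c was then 2.43, 2.59, 2.54 and 2.66, Ms4a6b 2.09, 2.17, 1.85 and 2.12, Ms4a6c 6.66, 7.04, 6.69 and 7.33, and Ms4a6d 7.14, 6.43, 6.38 and 7.09.

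Ms4a7 and the Tmem176 pair still differed between libraries within that class, and library 2 was highest for the first and lowest for the latter. Ms4a7 was 1.89 in library 2 and 0.879, 1.36 and 1.24 in libraries 3 to 5. Tmem176b was 1.59 in library 2 and 2.08, 1.76 and 2.46 in the others, and Tmem176a was 1.17, 1.57, 1.25 and 1.81. C1qa, a complement gene of mature macrophages, was also highest in library 2, at 7.92 against 2.68, 3.99 and 4.24.

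Neutrophil-like cells had 0.0717 to 0.102 of Ms4a4c, 0.319 to 0.449 of Ms4a6c, 0.42 to 0.481 of Ms4a6d and 0.0349 to 0.0387 of Tmem176a. The difference between the classes, on log2 of the mean plus 0.1 and averaged over the 4 libraries, was 3.8 (SD 0.0621) for Ms4a4c, 3.88 (SD 0.216) for Ms4a6c, 3.48 (SD 0.265) for Tmem176a and 3.72 (SD 0.18) for Tmem176b. It was smallest for Ms4a7, at 2.29 (SD 0.448). Transcripts of other classes were found across cells, with the neutrophil transcript S100a8 in 81.5% of the 243 B-like cells, and the part of free RNA or of doublets in the low levels was not tested. Ms4a6c was present in 19.7%, 23.6%, 27.7% and 18.7% of neutrophil-like cells of libraries 2 to 5 and in 12.5%, 13.5%, 40.5% and 11.9% of B-like cells, so the order of the classes differed in library 4. Tmem176b was present in 3.27% of all neutrophil-like and 3.7% of all B-like cells, at medians of 7499 and 7525 corrected counts. For Ms4a7 the shares were 8.88% and 3.29%, and for C1qa, in the same cells, 26.7% and 7.82%.

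The monocyte/macrophage-like cells of the tumors fell into 4 clusters in which the members took different places. In 679 cells led by C1qc, C1qa and C1qb, Ms4a7 had means of 5.44, 5.51, 6.33 and 5.93 in libraries 2 to 5, and it was detected in 65.7% of the cells. In the other 3 clusters of the class it had 0.16 to 1.78 in any library. The C1q-led cells held fewer Ms4a4c transcripts (0.96 to 1.42) than the other clusters (1.48 to 3.92). Library 2 gave 365 of the 679 cells.

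The 842 cells led by Ccr2, Lyz2 and Cx3cr1, genes of blood monocytes, were the opposite pole. Tmem176a had means of 3.42, 3.57, 2.8 and 3.69 there, Tmem176b 4.85, 4.99, 3.66 and 5.51, and Ms4a6c 9.96, 10.7, 9.81 and 11.3. Ms4a7 was 0.3, 0.25, 0.25 and 0.247. In this cluster Ms4a6c exceeded Ms4a6d (5.84 to 7.09), whereas in 1480 cells led by Sdc1, Thbs1 and Fcgr1 the order was turned, with Ms4a6d at 7.91 to 9.93 and Ms4a6c at 6.75 to 8.23. These are 3′ tag counts of different transcripts, so only the change of order between clusters is of interest. In 1293 cells led by Arg1, Pf4 and Mrc1, Tmem176a at 0.489 to 0.795 and Ms4a6c at 4.33 to 5.08 lay lower than in both of these clusters.

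**Figure D3:**
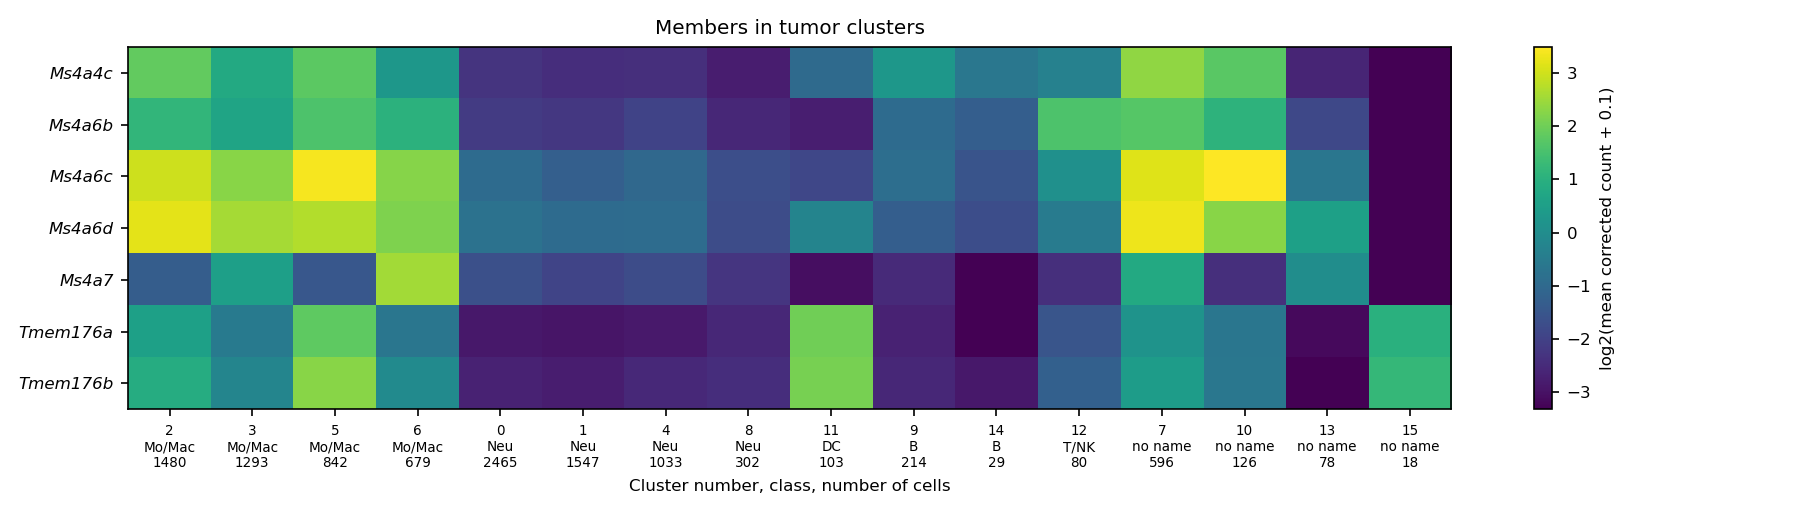
Mean level of each member, as log2 of the mean corrected count plus 0.1, in the 16 tumor clusters, with the cluster number, class and number of cells under each column. The 4 neutrophil-like columns are dark for all 7 members, Ms4a7 is brightest in cluster 6 (mean 5.71), and both Tmem176 rows are bright in clusters 5 and 11.

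Outside that class the Tmem176 pair and the Ms4a members were often found apart. Dendritic-like cells (103, led by Ccr7, Fscn1 and Ccl22) had Tmem176a at 3.11, 5.88, 2.64 and 4.1 and Tmem176b at 3.61, 5.42, 3.09 and 4.59 in libraries 2 to 5, with transcripts in 80.6% and 86.4% of cells. The Ms4a members were lower and uneven in the same cells. Ms4a6b was at 0.0485, Ms4a6c at 0.175 and Ms4a7 at 0.0194, while Ms4a6d was at 0.738 in 39.8% of cells and Ms4a4c at 0.408 in 15.5%. In 18 cells led by the collagen genes Col1a1 and Col3a1, Tmem176a and Tmem176b were at 1.89 and 2.22 and the Ms4a members had no transcript. For Ms4a members outside the myeloid classes, Ms4a6b was at 2.92 in 80 T/NK-like cells, where its relative Ms4a4b was at 8.38, and Ms4a4c was at 1.05 in B-like cells. A cluster of 596 cells with MHC class II genes in the lead met both the dendritic and the macrophage marker lists and was left without a name. It had the highest Ms4a4c of the tumor clusters (5.01), and a mean of 9.88 for Ms4a6d.

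Over the cells of a library, the members rose and fell together to differing degrees, given here as Spearman correlations over cells that share a library, depth and cell types, and without a test. The Tmem176 pair was the most tightly linked in the cultures, at 0.683 to 0.688 in B-MF and 0.628 to 0.651 in Mo-MF, and reached 0.72 to 0.773 in the tumors. Ms4a6c with Ms4a6d had 0.455 to 0.519 in B-MF, 0.488 to 0.517 in Mo-MF and 0.811 to 0.833 in the tumors. Across the loci the values were low in culture, with Ms4a6c and Tmem176b at 0.153 to 0.192 in B-MF and 0.217 to 0.22 in Mo-MF. The median over the 21 pairs was 0.181 and 0.159 in the B-MF libraries, 0.232 and 0.261 in Mo-MF, and 0.38, 0.472, 0.432 and 0.497 in the tumor libraries.

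The median tumor correlation was lower within 1 cell class, though not every pair fell. Within monocyte/macrophage-like tumor cells, the median over pairs was 0.23, 0.274, 0.243 and 0.255. Ms4a6c with Ms4a6d had 0.523 to 0.589 there, against 0.811 to 0.833 over all tumor cells. The Tmem176 pair stayed at 0.713 to 0.771 in those cells. Ms4a7 with the other 6 members lay between -0.145 and 0.124 within that class. In monocyte/macrophage-like culture cells, Ms4a7 with Ms4a6d was 0.328 to 0.388 in B-MF and 0.36 to 0.366 in Mo-MF, while Ms4a7 with Ms4a4c was 0.0395 to 0.05 in B-MF and 0.196 to 0.241 in Mo-MF.

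**Figure D4:**
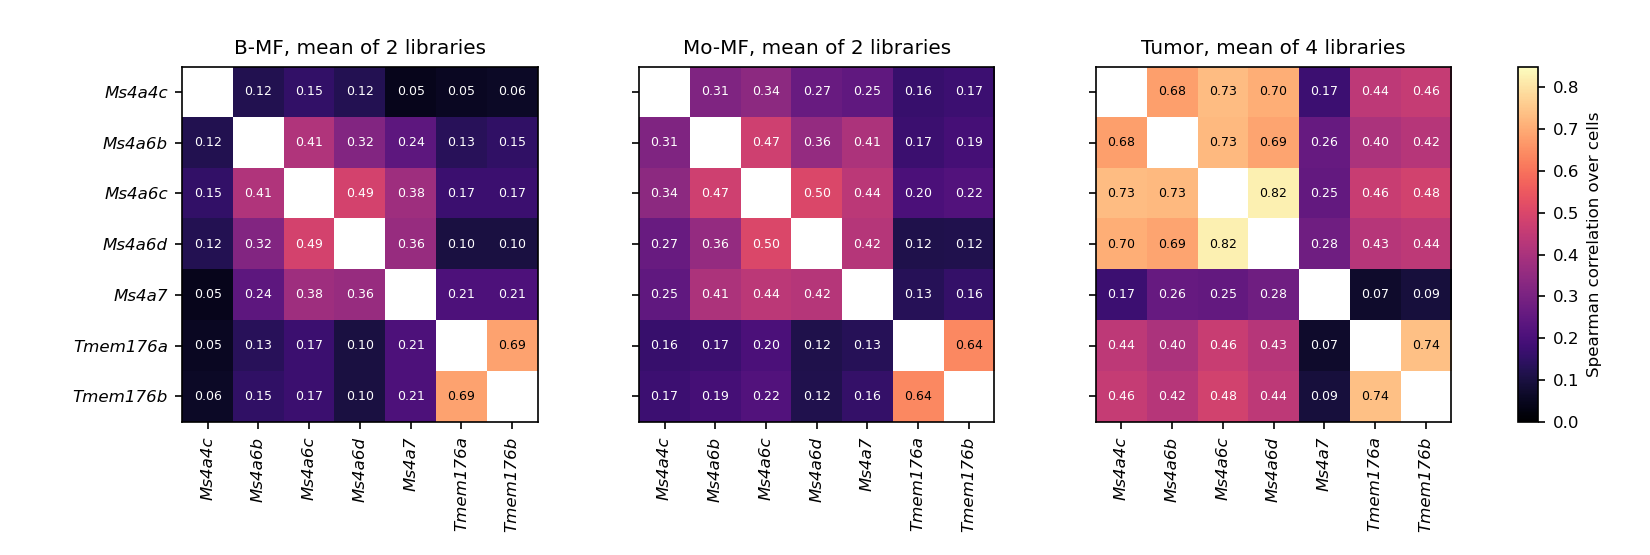
Spearman correlation over cells for each pair of members, as the mean over the 2 B-MF, 2 Mo-MF and 4 tumor libraries, with the value written in each square. The Tmem176 pair is bright in all 3 panels, the block of Ms4a4c, Ms4a6b, Ms4a6c and Ms4a6d is bright in the tumor panel, and Ms4a7 is dark there, at 0.07 to 0.28.

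The genes whose pattern over cells was most like the summed members were sought among all genes measured well enough. The 8 closest by Pearson correlation of log values were kept in each group. In B-MF they were Ifitm3 (0.477), Ier3, Ctsc, Ifitm2, Aif1, C1qc, Clec4a1 and Clec4n. In Mo-MF they were Ifitm3 (0.489), Pld4, Fcer1g, Bst2, Ctsc, Rpl15, Ccr2 and Ly6a. Ifitm3 and Ctsc, an interferon-induced membrane protein gene and a lysosomal protease gene, stood in both lists. In monocyte/macrophage-like tumor cells the list was headed by Ctss (0.514), Lst1 and Cst3 and again held Ccr2.

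Taken 1 by 1, the members had different nearest genes. In monocyte/macrophage-like tumor cells, Ms4a7 was closest to C1qa (0.558 to 0.673 over the 4 libraries), C1qc and C1qb. Ms4a6c was closest to Ccr2 (0.428 to 0.598), and Tmem176b to Lyz2 (0.387 to 0.447) and Napsa. Ms4a4c was closest to the interferon-inducible genes Ly6e (0.452 to 0.513) and Ifi44. In B-MF, where few cells had it, Ms4a4c was closest to Ifit2, Irf7 and Isg15, at 0.186 to 0.228. In Mo-MF it was closest to Ccr2 (0.433 and 0.457).

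Genes outside the set that belong to the same family or to the processes named above were tested between B-MF and Mo-MF with limma over all 8633 genes, with Benjamini-Hochberg adjustment. Of these genes, 22.6% were called higher and 16.9% lower in B-MF. The culture table held 8 other Ms4a genes, of which 2 were abundant enough to test. Ms4a4a, whose product associates with the fungal receptor dectin-1, had means of 0.312 and 0.287 for B-MF against 0.352 and 0.346 for Mo-MF, and was lower in B-MF by limma (log2 difference -0.17, SE 0.054, adjusted p = 0.0379). Ms4a14 was also lower (log2 difference -0.31, SE 0.06, limma adjusted p = 0.00434), with means of 0.196 and 0.168 against 0.25 and 0.251. Ms4a1, the CD20 gene, was at 0.0115 and 0.021 for B-MF against 0.000825 and 0 for Mo-MF, too low to test. In the tumors Ms4a1 was at 5.58 in B-like cells and 0.00489 in monocyte/macrophage-like cells.

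Of 11 inflammasome genes tested, 2 were higher and 4 lower in B-MF, and the list's median was -0.09 on the log2 scale. Nlrp3, the sensor restrained by Tmem176b, rose to 0.677 and 0.589 in B-MF from 0.325 and 0.297 in Mo-MF (log2 difference 0.83, SE 0.07, limma adjusted p = 4.38e-05). Mefv, which encodes the sensor pyrin, was lower, at 0.0176 and 0.0116 against 0.335 and 0.319 (log2 difference -1.90, SE 0.054, limma adjusted p = 1.23e-07). Of 5 MHC class II genes tested, 4 were higher in B-MF, among them H2-Eb1 (log2 difference 1.03, SE 0.059, limma adjusted p = 5.02e-06) and Cd74 (0.86), and H2-DMa, a peptide loading gene, was lower (-0.27). The median was 0.43. With no filter on low genes, 9 class II genes were tested, of which 2 were higher and 2 lower. Of 12 genes of dectin-1 and Fc receptor signaling, 6 were higher, with the largest differences for Fcgr3 (0.50) and Tyrobp (0.32). In the same list 1, the kinase gene Syk (-0.34), was lower, and the median was 0.15. Without the first Mo-MF library, the inflammasome counts became 1 higher and 1 lower, and without the first B-MF library 2 and 6. For dectin-1 and Fc receptor signaling the higher count ranged from 3 to 8 when a library was left out, with 3 reached without the second Mo-MF library.

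The ATAC-seq peaks showed which members had open chromatin in the sorted BM and spleen cells. Each library had its own peak calls, 65832 to 76530 in BM and 43407 to 50392 in spleen. In bulk cells, a smaller share of cells with an open site and a weaker opening in each cell cannot be told apart. The starts of the B cell genes Cd79a, Cd79b, Pax5 and Ebf1 had a peak in all 12 libraries, and the macrophage genes were divided. Apoe and Cd68 had a start peak in all 12, Adgre1 in 6 BM libraries and 1 spleen library, and C1qa, C1qb, C1qc and Mrc1 in none. The start of Csf1r had a peak in 6 of 6 BM and 0 of 6 spleen libraries, whether sorted as CSF1R+ or CSF1R-. The same held for the neutrophil genes S100a8, S100a9 and Cxcr2. The other neutrophil markers, Csf3r, Retnlg, Ly6g and Mmp8, had a start peak in some BM libraries and in no spleen library. So did the T/NK markers Nkg7, Gzma and Klrk1, while Cd3e and Cd3d had none in any library. The part of other cells in the BM libraries was not tested.

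Ms4a7, the most abundant of the members in culture, had a peak within 1 kb of a start in all 12 libraries, where starts are those of GENCODE basic transcripts. Its fold enrichment over the local background, as the peak caller gave it, was 6.33, 9.23 and 9.55 in BM CSF1R+, 4.9, 6.64 and 9.83 in BM CSF1R-, 22.9, 24.4 and 18.7 in spleen CSF1R+ and 19.2, 18.8 and 18.6 in spleen CSF1R-. Every spleen value was above every BM value. This was not tested, and the share of all start peaks that separate the tissues in this way was not computed. The peak (chr19:11335952-11336391) covers most of the Ms4a7 window printed above, with the start. Ms4a6b also had a start peak in all 12 libraries (7.64 to 12), inside which its GGAAGT matches lie, and Ms4a6c in 11 (4.45 to 10.9).

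Ms4a4c had a start peak in all 6 spleen libraries, at 11.9, 11.9 and 9.94 in CSF1R+ and 10.8, 11.7 and 10.2 in CSF1R-, and in 2 of 6 BM libraries, at 4.57 and 4.97. Within 2000 bases of the start, a further peak in its intron brought all 12 libraries in. Ms4a6d had no peak within 1 kb of a start in any library. Its strongest region lay 2703 bases inside the gene (chr19:11601892-11602400) and was open in all 12 libraries. Its fold enrichment in BM was 12.7, 10.6 and 11.5 in CSF1R+ and 19.3, 18.6 and 18.7 in CSF1R-, without overlap. In spleen it was 18.3, 17.4 and 19.6 in CSF1R+ and 16.6, 20.6 and 17.1 in CSF1R-, and the groups overlapped. The Ms4a6b start peak also lay lower in BM CSF1R+ (7.64, 8.33 and 8.12) than in BM CSF1R- (10.6, 10.5 and 8.83), while in spleen the groups overlapped (12, 11.3 and 9.82 against 11.7, 11.3 and 12). In the other member regions open in all 12 libraries, the fold values of the BM CSF1R+ and CSF1R- libraries overlapped. The fold values of Ms4a6d and Ms4a6b were picked out after they were seen and were not tested. The share of all regions that separate the groups in this way was not computed. Over 21924 genes, 50.3% had a start peak in all 12 libraries and 36.2% in none.

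The Tmem176 pair was the reverse. Tmem176a had a start peak in 6 of 6 BM libraries, at 5.45, 8.01 and 7.73 in CSF1R+ and 7.48, 7.89 and 6.07 in CSF1R-, and in 1 of 6 spleen libraries, at 3.63. Tmem176b had one in 5 BM libraries and the same spleen library. For both genes, the main peak was the shared region between the opposed starts (chr6:48840958-48841846), which contains both windows printed above and was called in 6 libraries. The first BM CSF1R- library lacked it, and its Tmem176a value of 7.48 belongs to another peak (chr6:48842561-48842779). Within 500 bases of a start, that library had no Tmem176a peak.

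**Figure D5:**
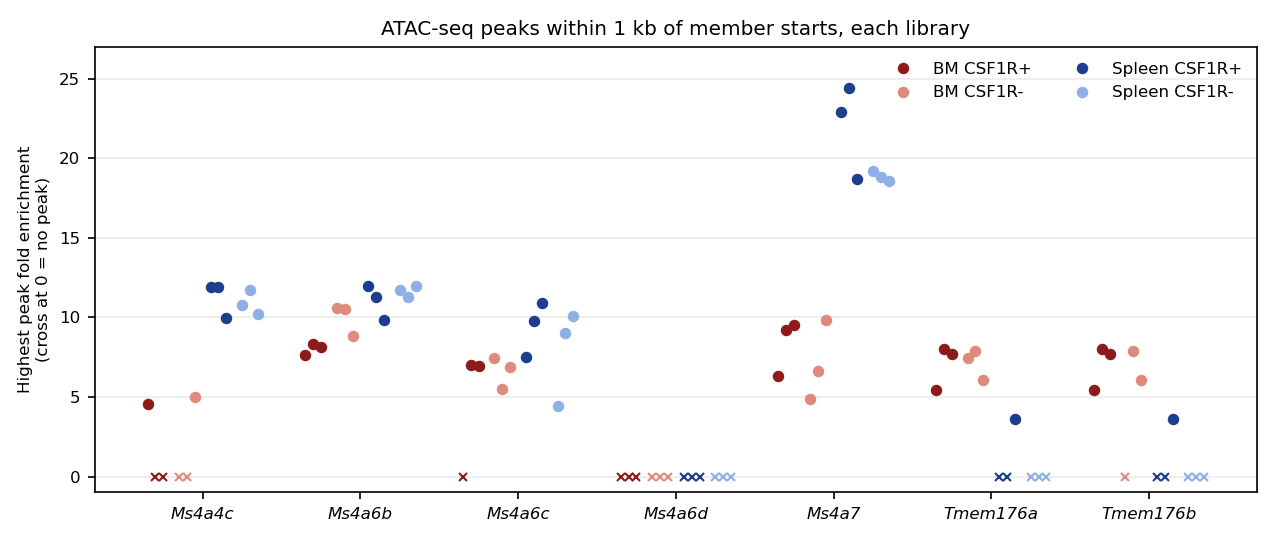
Highest fold enrichment of a peak within 1 kb of a start of each member in each of the 12 ATAC-seq libraries, with 3 points a group and a cross at 0 where no peak was called. Ms4a7 and Ms4a4c are higher in the 6 spleen libraries, the Tmem176 pair has peaks mainly in BM, and Ms4a6d has crosses only.

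Counted over the genes with 5 kb on either side, the Ms4a members had 11 to 15 peaks in the BM libraries and 12 to 17 in the spleen libraries. Per 10000 peaks of the library this was 1.86 ± 0.202 in BM (SD, n = 6) and 3.08 ± 0.51 in spleen (SD, n = 6), a difference of -1.22 (two-sided exact permutation test, p = 0.00216, the smallest that 924 arrangements allow, adjusted p = 0.013 over 6 tests). Without the scaling, the difference was -1.5 peaks, with an adjusted exact permutation p of 0.6, so it rests on the larger number of peaks called in BM. The Tmem176 pair had 2 to 4 peaks in BM and 0 to 2 in spleen, or 0.397 ± 0.129 against 0.101 ± 0.17 per 10000 (SD, n = 6, exact permutation p = 0.0152, adjusted p = 0.0455). Without scaling the difference was 2.33 peaks, with a smaller exact permutation p of 0.00866. Its adjusted p of 0.0519 nevertheless missed the threshold, since the unscaled Ms4a p in the same 6 tests was 0.238. The Tmem176 call was lost with 20 kb on either side (0.163, exact permutation adjusted p = 0.264). It was also lost, at an adjusted p of 0.0714, without any 1 of 7 libraries, namely replicate 2 or 3 of BM CSF1R+, replicate 2 of BM CSF1R-, replicate 2 of spleen CSF1R+ or any spleen CSF1R- library. The 6 libraries of a tissue pool CSF1R+ and CSF1R- sorts, and the labels do not say whether these came from the same animals. The permutation tests of BM against spleen treated all 6 as independent.

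The number of peaks at the members was not shown to differ between CSF1R+ and CSF1R- cells. In BM the Ms4a count per 10000 peaks was 1.72 ± 0.0595 in CSF1R+ and 1.99 ± 0.205 in CSF1R- (SD, n = 3, exact permutation p = 0.2), and in spleen 3.07 ± 0.348 and 3.08 ± 0.728 (SD, n = 3, exact permutation p = 1). For the Tmem176 pair it was 0.413 ± 0.109 and 0.382 ± 0.17 in BM (SD, n = 3, exact permutation p = 0.8), and 0.202 ± 0.204 and 0 in spleen (SD, n = 3, exact permutation p = 0.4). With 3 libraries a group no p can go below 0.1. The CSF1R difference itself was not shown to depend on the tissue (exact permutation over 400 arrangements, p = 0.55 for Ms4a and 0.38 for Tmem176).

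Merged over the libraries there were 101333 regions, of which 27 lay at the members, 7 of them open in all 12 libraries and 3 in 1 library. Of all regions, 30.1% were open in all 12 libraries and 15.3% in 1 only. No member region was open in all BM and no spleen libraries, a pattern of 11.2% of all regions. The reverse pattern, held by 2.01% of all regions, was met by 1, at chr19:11324121-11324434, which overlaps an exon of Ms4a7 10418 bases from the nearest start and had 6.68 to 11.2-fold enrichment in the spleen. In BM, no member region was open in all CSF1R+ and no CSF1R- libraries or the reverse (0.613% and 0.503% of all regions). In spleen, 1 was open in CSF1R+ only (0.439% of all), an exon-overlapping region of Ms4a4c at chr19:11404470-11404968, at the outermost 5′ end of its gene model, with 3.65 to 4.81-fold enrichment, and 0 in CSF1R- only (0.0336%). In BM that Ms4a4c region was open in 1 CSF1R+ and 3 CSF1R- libraries, so its spleen pattern did not recur there. When a peak had to cover 50% of a region to count, the member regions numbered 2 for spleen only, 1 for BM CSF1R- only and 0 for spleen CSF1R+ only.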

How the data were processed

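Single-cell RNA-seq libraries (10x 3′ kit, 8 libraries) and ATAC-seq libraries (12) were analysed from deposited tables. The authors counted reads with Cell Ranger and corrected them for depth with SCTransform. The deposited values are the natural log of the corrected count plus 1, and whole corrected counts were recovered by inverting the log. The depth-corrected counts do not hold the sequencing depth of a library. For ATAC-seq the authors trimmed reads with cutadapt, aligned them to mm10 with BWA and called peaks per library with MACS2, and the deposited peak lists give each peak's fold enrichment as a ratio and its -log10 p-value and q-value. Tool names are those in the submitters' processing notes and the methods, which also list STAR.

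The members and gene lists were chosen with earlier results of these data known, and the details of the rule that names cell classes were set after the clusters were seen. Per-sample columns not used numbered 0. Mean corrected counts per cell were taken per library. Differences between B-MF and Mo-MF were fitted with limma 3.58.1 (R 4.3.3) on log2 of the mean plus 0.1 over 8633 genes with a mean of at least 0.1, without a block, at an adjusted p of 0.05. The fit gave SEs for members and tests for the other genes. These SEs use limma's moderated variance, which draws on the spread of all genes tested. With 2 libraries a group, same-numbered libraries shared only a number. Clusters came from 30 principal components of 2000 variable genes without the members, 20 neighbors and Leiden at resolution 0.5 (leidenalg 0.10.2, Python 3.11.15), within each table. A class was named from marker lists, and the unnamed clusters stayed so. No doublet caller was run. Genes named as most alike were the 8 with the highest mean Pearson correlation of log values with the summed members, and the 3 highest for each member. The summed members are the mean of the members' log values, each standardised over the cells of a library.

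ATAC-seq counts of peaks were taken within the genes and 5 kb on either side and scaled per 10000 peaks. Groups were compared with two-sided exact permutation tests adjusted over 6 tests (scipy 1.17.1). Gene models were GENCODE and promoters RefSeq, both on GRCm38. The limma and permutation steps were tested on simulated data. Alternatives were other pseudocounts, filters, scalings, cell classes, clusterings, flanks, peak thresholds, overlaps, the replicate block and leaving out each library.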

Additional observations from a re-analysis of the deposited data

How the results depend on the processing

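Over 207 comparisons of a result with an alternative, 158 kept direction and side of the threshold or moved by less than the replicate spread. None of 63 alternative values for the members in culture changed sign, but most of them could not have done so. Every member separated B-MF from Mo-MF without overlap, which fixes the sign under another pseudocount, the replicate block or a left-out library. Only scaling by total corrected counts and leaving out other cell classes could have changed it. The counts of members above and below, also among the 207 comparisons, were fixed in the same way. The CSF1R comparisons of peak counts had too few libraries for any call, so only their direction could change. Leaving out 1 library moved the genes called higher in B-MF from 1955 to between 1112 and 3855, and those called lower from 1458 to between 863 and 2950. A minimum mean of 0.5, which tests fewer genes, gave 951 lower. The replicate block moved neither count by over 1.5 times.

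The median Mo-MF co-expression of 0.246 became 0.274 by Pearson, 0.22 in monocyte/macrophage-like cells and 0.215 given total counts, and the tumor median of 0.445 became 0.251 and 0.348 under the latter 2. With a replicate block the BM differences from spleen, -1.22 for Ms4a and 0.296 for Tmem176, each lost their call (adjusted p of 0.0938, from an exact p of 0.0312, the smallest that 64 arrangements allow), and without scaling they were -1.5 and 2.33. Tmem176 gave 0.163 with 20 kb and 0.26 to 0.358 over left-out libraries. The CSF1R difference in BM for Tmem176 turned from 0.031 to -0.00865 at -log10 q of at least 5, and ranged from -0.0239 to 0.129 over left-out libraries. That in spleen for Ms4a turned from -0.00178 to 0.097 at 1 kb, 0.2 at 20 kb and 1.33 unscaled, with -0.213 to 0.418 over left-out libraries. Regions that a peak had to cover by 50% gave 2 spleen-only, 1 BM CSF1R- only and 0 spleen CSF1R+ only. The cause of these changes was not tested. None of these CSF1R differences was called under any alternative, but none could have been, since 3 libraries a group allow no p below 0.1.

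Most cells lacked the lowest members in culture, Ms4a4c and the Tmem176 pair, and the part of depth in this was not tested. In the first B-MF library Tmem176b had a mean of 1.27 with transcripts in 25.3% of cells. Ms4a6b had a mean of 1.52 there with transcripts in 62%. With 2 libraries a group, SEs rest on few residual degrees of freedom and on a moderated variance that draws on all genes tested. The deposited log values hold no library depth, and the tumor numbers are not tied to labelled replicates.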

Other observations

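The genes with the most negative correlation to the summed members, by the same Pearson measure of log values over cells, are given as a description. In B-MF these were Mmp12 (-0.476 and -0.436 in the 2 libraries), Cd36 (-0.474 and -0.435) and Lpl (-0.465 and -0.437), a macrophage elastase gene, a fatty acid uptake gene and a lipoprotein lipase gene. In Mo-MF they were Atp6v0d2 (-0.357 and -0.402), Mmp12 (-0.298 and -0.33) and Rnf128 (-0.291 and -0.328). Mmp12 stood in both lists. In monocyte/macrophage-like tumor cells they were Aldoa (-0.433, -0.481, -0.464 and -0.451 in libraries 2 to 5), a glycolysis gene, with Ero1l (-0.394 to -0.502) and Bnip3 (-0.401 to -0.478), which are known to rise in low oxygen. The cells of a library share its depth and its mixture of states, and whether total counts or RNA quality move with these genes was not tested.

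Small tumor clusters without a name also differed in the members. In 126 dividing cells led by histone genes and the granule genes Prtn3 and Elane, Ms4a6c had a mean of 11.1, the highest of all tumor clusters, with Ms4a4c at 3.25 and Ms4a7 at 0.0873. In 78 cells led by the osteoclast genes Ctsk and Acp5, Ms4a7 had 0.91 and Ms4a6d 1.36, while Tmem176a had 0.0128 and Tmem176b had no transcript. In the cultures, 45 cells led by immunoglobulin and basophil genes had Ms4a7 at 7 in 97.8% of cells, while Tmem176b was found in 13.3% of them and averaged 6.19 and 4.43 for Mo-MF against 0 and 0.2 for B-MF, which gave 10 of the cells.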
